A study of Homo sapiens with 2 samples.

Results

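The genes described here encode lysosomal proteins of 3 classes, 22 hydrolases with the activator protein PSAP counted among them, 8 proteins of the lysosomal membrane and 14 subunits of the V-ATPase, the proton pump that acidifies the lysosome. They were picked by gene symbol, and all 44 had 1 row each among the 22458 rows with a symbol. Their RNA was measured in HCT116 cells, a cell line from a human colon carcinoma, on 2 expression arrays. One culture received 20 µM LXR623, an agonist of the nuclear receptor LXR, for 24 h in RPMI medium with 1.5% FBS, and the control culture received 0.1% DMSO. The labels do not state whether the LXR623 culture also contained DMSO. Each condition is represented by 1 array of 1 culture, so no difference has an error, a p-value or a replicate check, and any other difference between the cultures cannot be told apart from that of the compound.

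Lysosomes degrade proteins, glycans and lipids delivered by endocytosis and autophagy. Their soluble hydrolases work best at acid pH, which the V-ATPase maintains by coupling ATP hydrolysis in its cytosolic V1 sector to proton transport through its membrane sector V0. Transporters and heavily glycosylated proteins of the limiting membrane release the breakdown products and protect the membrane. Many of these genes belong to the CLEAR network, whose promoters carry an E-box-like element bound by the transcription factors TFEB and TFE3.

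The values are log2 intensities, and a difference is always the LXR623 value minus the DMSO value of the same probe set, so a difference of 0.58 equals 1.5-fold. Intensities of different genes depend on their probes and are not compared. Probe sets with at least 1 value of 4.42 or more, which is the median over the table, were counted as measured, and 12279 of 23786 passed. All 44 members passed with both of their values, the lowest being 4.80, so none of them passed through the LXR623 array alone. Of 12 colon epithelial markers 8 were measured, among them EPCAM and CDH1, whereas CDX1, GPA33, CDH17 and VIL1, markers of differentiated intestinal cells, were not. Of 7 leukocyte markers 0 were measured, of 8 stromal and endothelial markers 1 was, COL1A1, and of 5 glial markers 1 was, MBP. In RNA of a whole culture, fewer cells that express a gene and less of its RNA per cell cannot be told apart.

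Most members were somewhat higher in the LXR623 array, and few by much. The difference was above 0 for 31 of the 44 members, against 47.0% of all measured probe sets, and the median was 0.11, against -0.02 for all measured probe sets. At least 1.5-fold higher were 4 members, IDUA, SLC17A5, HEXA and PSAP, and 0 were at least 1.5-fold lower. Of all measured probe sets 6.30% passed this threshold upward and 5.78% downward. Of those with both values at the level of 4.42, as all members had, 5.35% passed upward and 5.17% downward. The 4 of 44, or 9.09%, lie not far from either background. By class the medians were 0.25 for hydrolases, 0.17 for membrane proteins and 0.05 for V-ATPase subunits. The means were 0.25, 0.24 and 0.05, and without IDUA that of the hydrolases was 0.18. Above 0 were 15 of 22 hydrolases (68.2%), 7 of 8 membrane proteins (87.5%) and 9 of 14 V-ATPase subunits (64.3%).

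**Figure D1:**
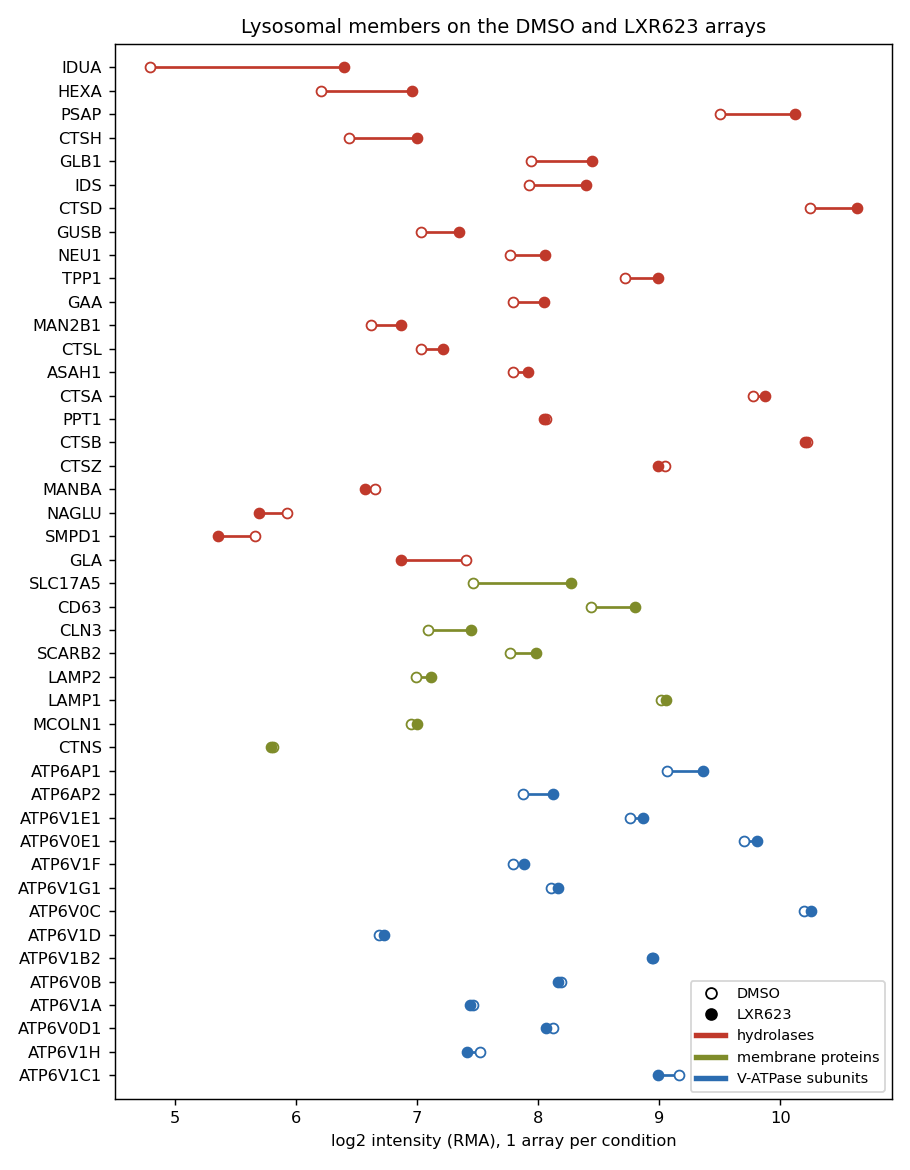
Log2 intensity of each of the 44 members on the DMSO array (open circles) and on the LXR623 array (filled circles), grouped by class and sorted by difference within it, with 1 array per condition and no error bars. IDUA runs from 4.80 to 6.40, while the open and filled circles of most V-ATPase subunits nearly coincide.

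As a yardstick for single genes, each difference was set beside those of all probe sets of like brightness, in 20 bins of equal size by mean value. Of the 44 members 1, IDUA, lay outside the central 95% of its bin, and 24, or 54.5%, lay inside the central 50%. Of all 12279 measured probe sets 681 lay outside the central 95% and 49.0% inside the central 50%, so the members were near the background. These ranges describe the difference between both cultures over all genes, including genes that respond to the compound, and are no replicate error.

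**Figure D2:**
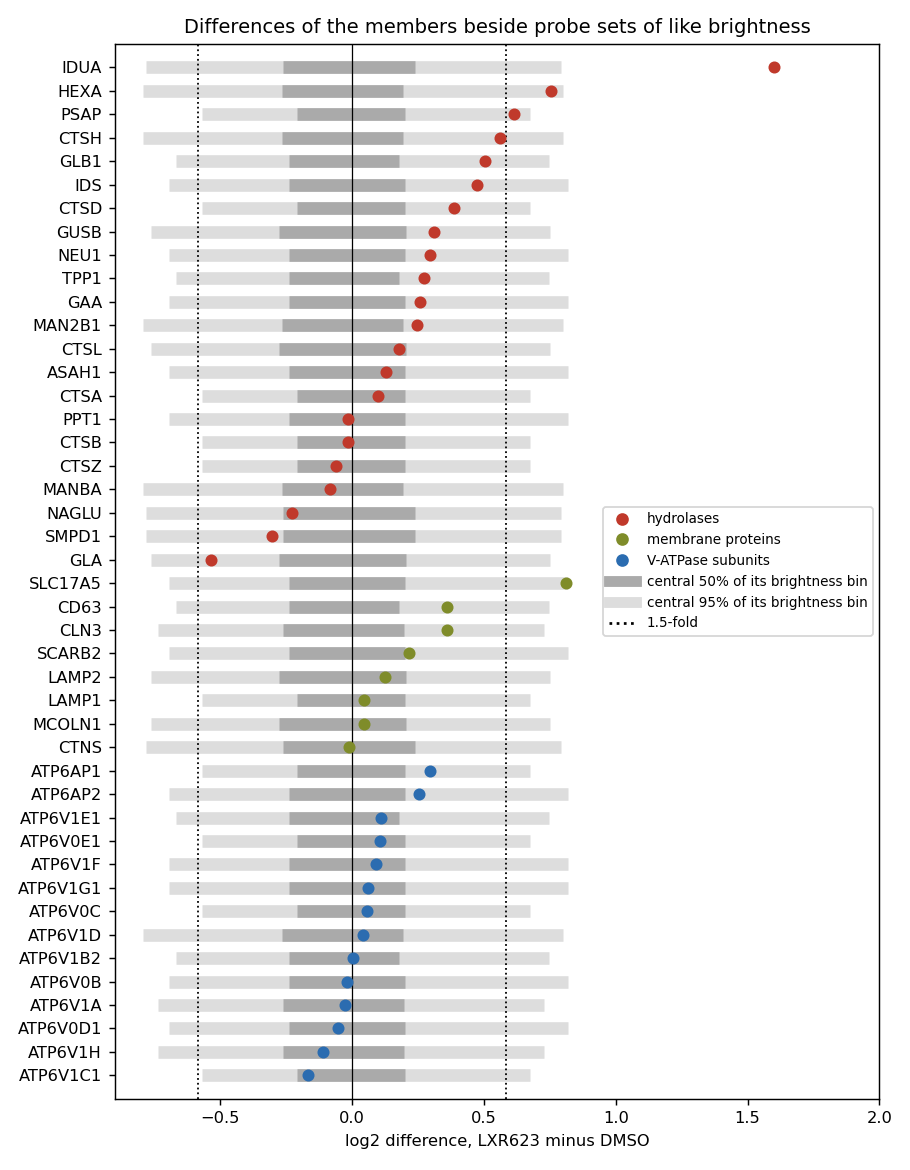
Difference of each member between the LXR623 and the DMSO array on the log2 scale (points), with the central 50% (dark bars) and central 95% (light bars) of all probe sets in its bin of mean value and dotted lines at 1.5-fold. IDUA at 1.60 lies beyond its light bar, and the 12 core subunits of the V-ATPase all lie on their dark bars.

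Among the peptidases, those with the larger differences were higher in the LXR623 array. CTSH, a cathepsin that acts mainly as an aminopeptidase, had 6.44 with DMSO and 7.0 with LXR623. Its difference of 0.56, or 1.48-fold, came close to the threshold without reaching it. CTSD, the main aspartic protease of lysosomes, had 10.25 and 10.63, a difference of 0.39. TPP1, which removes tripeptides from the end of proteins and is deficient in a childhood form of neuronal ceroid lipofuscinosis, had 8.71 and 8.99, a difference of 0.27. The cysteine cathepsins CTSB, with 10.22 and 10.20, and CTSZ, with 9.05 and 8.99, differed by -0.02 and -0.06. CTSL, a cysteine endopeptidase, and CTSA, a carboxypeptidase that also protects NEU1 and GLB1, lay between these, at 0.18 and 0.10. Over the 7 peptidases the median was 0.18, and 0 of them were at least 1.5-fold higher or lower. With background shares of 6.30% and 5.78%, that count is uninformative in so short a list.

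The enzymes that degrade glycans held both the largest positive and the most negative difference of all members. IDUA, the iduronidase of heparan and dermatan sulfate breakdown whose loss causes mucopolysaccharidosis I, was at 4.80 with DMSO and at 6.40 with LXR623. This difference of 1.60, or 3.03-fold, lay at percentile 99.8 of all measured probe sets, and the central 95% of its brightness bin ran from -0.78 to 0.79. IDUA was also the member with the dimmest DMSO value. In the RefSeq annotation it overlaps SLC26A1, an anion transporter gene, whose probe set was dim on both arrays and lower with LXR623, with 2.56 and 2.05. Other members with an overlapping gene were CTSA, GLB1, SCARB2, CD63 and ATP6V1D, and those genes differed by -0.22 to 0.21. The strand that the probes read is not given in the sources used here, and the part of overlapping transcripts was not tested.

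HEXA, the alpha subunit of the hexosaminidase that is deficient in Tay-Sachs disease, had 6.21 with DMSO and 6.96 with LXR623. With a difference of 0.76, or 1.69-fold, it was the other glycan hydrolase past the threshold. GLB1, the lysosomal beta-galactosidase, had 7.94 and 8.44, a difference of 0.50. GLA, the alpha-galactosidase that is deficient in Fabry disease, went in the opposite direction, with 7.41 and 6.87. Its difference of -0.53 lay at percentile 7.65 of all measured probe sets and within the central 95% of its bin, which began at -0.76. NAGLU, which acts on heparan sulfate, had 5.92 and 5.70, a difference of -0.23. The other 6, IDS, GUSB, NEU1, GAA, MAN2B1 and MANBA, lay between -0.08 for MANBA, the beta-mannosidase, and 0.47 for IDS, the sulfatase that acts before IDUA. Over the 11 enzymes the median was 0.29, and 8 differences were above 0.

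In the lipid group the activator stood above the enzymes. PSAP, the precursor of the 4 saposins that present sphingolipids to their hydrolases, had 9.50 with DMSO and 10.12 with LXR623, a difference of 0.61, or 1.53-fold. ASAH1, the acid ceramidase, had 7.79 and 7.92, a difference of 0.13, and PPT1, which removes palmitate from proteins, had 8.07 and 8.05, a difference of -0.01. SMPD1, the acid sphingomyelinase, had 5.66 and 5.36, a difference of -0.30. The 3 enzymes thus lay on both sides of 0.

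Proteins of the lysosomal membrane were with 1 exception above 0. SLC17A5, or sialin, which exports sialic acid from the lysosome, had 7.46 with DMSO and 8.27 with LXR623. Its difference of 0.81, or 1.75-fold, lay at percentile 97.3 of all measured probe sets and just inside the central 95% of its bin, which ended at 0.82. CD63, a tetraspanin of late endosomes and exosomes, had 8.44 and 8.80, and CLN3, the protein mutated in juvenile neuronal ceroid lipofuscinosis, had 7.09 and 7.45, both with a difference of 0.36. MCOLN1, the calcium channel that signals to TFEB, differed by 0.04, with 6.95 and 7.0. CTNS, the cystine exporter, was the exception, with 5.81 and 5.80 and a difference of -0.01. The most abundant proteins of this membrane, LAMP1 and LAMP2, and SCARB2, the receptor that carries glucocerebrosidase to lysosomes, lay between 0.05 for LAMP1 and 0.22 for SCARB2. Of the 8 genes 1, or 12.5%, was at least 1.5-fold higher, beside 6.30% of all measured probe sets and 5.35% of those with both values measured. In a list this short such a count is uninformative.

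The V-ATPase differed least between the arrays. Of the V0 sector, ATP6V0C, the proteolipid of the proton-conducting ring, had 10.19 with DMSO and 10.25 with LXR623, a difference of 0.06. ATP6V0B, the related ring subunit, had 8.18 and 8.17, a difference of -0.02. ATP6V0D1, which links the ring to the central stalk, had 8.12 and 8.07, a difference of -0.05. ATP6V0E1, a small membrane subunit, had 9.70 and 9.81, a difference of 0.10. The 4 values of this sector thus stayed within 0.11 of 0 on the log2 scale.

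In the V1 sector the differences ran from -0.17 to 0.11. The most negative was that of ATP6V1C1, with 9.16 and 8.99, followed by ATP6V1H with 7.52 and 7.41, and in yeast both of these subunits take part in the regulated joining of V1 to V0. The most positive was that of ATP6V1E1, a subunit of the peripheral stalks, with 8.76 and 8.87. Its partner in the stalks, ATP6V1G1, had 8.11 and 8.17, and ATP6V1F, of the central stalk, had 7.79 and 7.88, with differences of 0.06 and 0.09. The catalytic subunit ATP6V1A, its partner in the ATP-hydrolyzing head ATP6V1B2 and the stalk subunit ATP6V1D lay between -0.03 and 0.04. The accessory subunits lay above all 12 core subunits. ATP6AP1, with 9.07 and 9.36, differed by 0.30 and ATP6AP2, also known as the prorenin receptor, with 7.87 and 8.12, by 0.25.

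All 12 V0 and V1 subunits lay inside the central 50% of their brightness bins, against 49.0% of all measured probe sets, and 0 of the 2 accessory subunits did. Of the 14 V-ATPase genes 0 passed 1.5-fold in either direction. In a list of this size the background shares of 6.30% and 5.78% make such a count uninformative by itself.

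Hydrolases and V-ATPase subunits overlapped in their differences, and the hydrolases were spread more widely. Of the 22 hydrolases, 11 lay within the range of the V-ATPase, from -0.17 to 0.30, 8 lay above it and 3 below it. The 8 above were IDUA, HEXA, PSAP, CTSH, GLB1, IDS, CTSD and GUSB, and the 3 below were NAGLU, SMPD1 and GLA. The interquartile range was 0.47 for hydrolases and 0.12 for V-ATPase subunits, with 0.48 for all measured probe sets. Inside the central 50% of their bins lay 8 of 22 hydrolases, or 36.4%, beside 49.0% of all measured probe sets. The gap between the medians of both classes was 0.20 on the log2 scale, or 1.15-fold. At least 1.5-fold higher were 3 of 22 hydrolases, or 13.6%, beside the background of 6.30%, or 5.35% of probe sets with both values measured. The hydrolases included dimmer probe sets, with DMSO values down to 4.80 against 6.69 in the V-ATPase, and the part of brightness in the wider spread was not tested. Without IDUA, an alternative added after its value was seen, the hydrolase median was 0.25 and the gap 0.20. Genes of a class are not replicates of a condition, so this gap was not tested.

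The letters of the promoters were read as well. Many lysosomal genes are known members of the CLEAR network, so a larger share with its element is no independent result. RefSeq promoters on GRCh38.p14, 250 bases before and 50 from each start site on, were at hand for 32 of the 44 members. The E-box CACGTG was found in 11 of these 32, against 12.98% of the 9253 measured genes with a promoter and 7.26% of all 35116 promoters. Its extension TCACGTGA, the core of the CLEAR element, was found in 7 of 32, or 21.9%, against 2.40% of the measured genes and 0.980% of all promoters. Flanked by G before and C after it, as in the full palindrome, it was found in 3, GAA, MCOLN1 and ATP6V1G1, against 1.01% of the measured genes and 0.353% of all promoters. The E-box is part of both longer forms, and being palindromes these read the same on either strand. TGATGNAA, as bound by ATF4, and the LXR response element, AGGTCA repeated after any 4 bases, were searched on both strands and found in 0 of the 32, against 2.63% and 0.0108% of the measured genes and 3.62% and 0.0199% of all promoters. No match says only that these letters are not in the windows.

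The 11 members with an E-box are shown with 28 bases around 1 match each, the fullest and then the one nearest to the start site, read in the direction of the gene from 5′ to 3′, with the E-box in capitals, to set the flanks beside the differences between the arrays.
CTSA (chr20:45891299-45891326, + strand): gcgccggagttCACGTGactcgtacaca
CTSD (chr11:1763958-1763985, - strand): ccggccgcgccCACGTGaccggtccggg
GAA (chr17:80101539-80101566, + strand): ctcccgccggtCACGTGacccgcctctg
NEU1 (chr6:31862931-31862958, - strand): tgctgcgtgatCACGTGggaggagatga
LAMP1 (chr13:113297227-113297254, + strand): gcggcgcagctCACGTGacaagcgctgc
CD63 (chr12:55729173-55729200, - strand): cgggtaggggcCACGTGgccctggccgg
MCOLN1 (chr19:7522599-7522626, + strand): ggctaccgggtCACGTGaccgaggcaca
CLN3 (chr16:28492059-28492086, - strand): gcgggtgctgtCACGTGatccgacaaac
ATP6V0B (chr1:43974910-43974937, + strand): taccggcgcatCACGTGggcgagttagg
ATP6V0D1 (chr16:67481200-67481227, - strand): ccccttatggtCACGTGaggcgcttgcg
ATP6V1G1 (chr9:114587700-114587727, + strand): cgctgtgcggtCACGTGacaacgggggc

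These E-boxes begin between 1 base upstream of the start site, in LAMP1 and CLN3, and 180 bases upstream, in CD63. The LAMP1 promoter holds 6 E-boxes, the promoters of GAA, MCOLN1, CTSA, CLN3 and ATP6V0B hold 2 each, and the other 5 hold 1. The element was spread over the classes, with a CLEAR core in 2 of 16 hydrolases, 3 of 7 membrane proteins and 2 of 9 V-ATPase subunits that have a promoter in the table. Among the 32 members with a promoter, those with a CLEAR core had a median of 0.06, with a range from -0.05 for ATP6V0D1 to 0.36 for CLN3. Those without it had a median of 0.25. HEXA and PSAP, both past 1.5-fold, had no promoter at hand, and the mix of classes was unlike with and without the core. These medians therefore do not show how the core relates to the larger differences. In GAA, MCOLN1 and ATP6V1G1, which share the full palindrome, the differences were 0.26, 0.04 and 0.06. Over all measured genes with a promoter, those with a CLEAR core had a median of 0.02 and those without it -0.03. A match is a description of letters and does not show that a factor binds there.

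**Figure D3:**
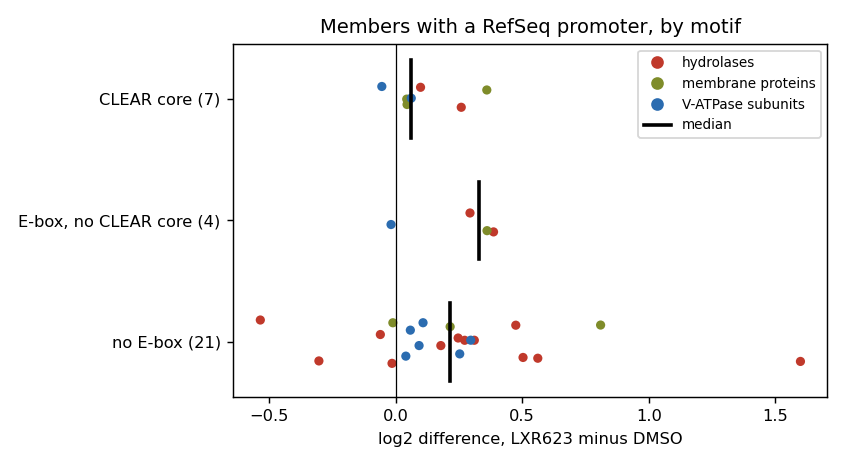
Difference between the LXR623 and the DMSO array on the log2 scale for the 32 members with a promoter, by whether the promoter holds the CLEAR core (7), an E-box without it (4) or no E-box (21), colored by class, with black bars at the medians and vertical jitter for legibility. The 7 members with a CLEAR core lie between -0.05 and 0.36, within the range of those without an E-box.

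Other lysosomal genes were listed by role from textbook knowledge, with earlier results of these data known, so they are no independent check. Measured further hydrolases, membrane proteins and pump subunits, only 5 of the last, had medians of 0.13, 0.13 and 0.03. Above 0 were 60.7%, 63.3% and 60.0% of them, against 47.0% of all measured probe sets. The shares were alike, but with only 5 pump subunits the last is coarse. Of 28 further hydrolases counted as measured, 2 cathepsins, CTSK and CTSO, were so through the LXR623 value alone. Over the other 26, an alternative added after seeing the data, 3 passed 1.5-fold upward and 1 downward, with a median of 0.10 and 15 above 0. Of all probe sets with both values at that level, 5.35% passed upward and 5.17% downward. With CTSK and CTSO the median was 0.13, and 4 of 28 passed upward. CTSO, a cysteine cathepsin, was the gene added, with 2.91 on the DMSO array, where it was not measured, and 4.88 with LXR623, so the size of its difference is not established. FUCA1, which removes fucose from glycans, had 7.36 and 8.46, a difference of 1.10. ARSG, a sulfatase of heparan sulfate breakdown, had 6.08 and 7.04, a difference of 0.97. CTBS, the chitobiase of glycoprotein breakdown and the third of the genes past the threshold, differed by 0.89. CTSC, the dipeptidyl peptidase that activates granule proteases in immune cells, went the other way, with 7.16 and 6.19 and a difference of -0.98.

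Of 30 further membrane proteins 4 passed 1.5-fold upward and 0 downward, with a median of 0.13 and 19 above 0. SIDT2, implicated in the uptake of nucleic acids by lysosomes, differed by 0.83, from 7.08 to 7.91. HGSNAT, the membrane-bound acetyltransferase of heparan sulfate breakdown, differed by 0.70, from 6.23 to 6.93. LMBRD1, needed to export cobalamin, had 5.16 and 5.78, and TMEM106B, a lysosomal protein linked to frontotemporal dementia, had 6.60 and 7.21, with differences of 0.62 and 0.61. All 30 had both values at the level of measured probe sets, so their share of 13.3% is read beside the 5.35% of all such probe sets.

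The remaining V-ATPase genes stayed near 0 where they were measured. ATP6V0A1, ATP6V0A2 and TCIRG1, isoforms of the large V0 subunit, and ATP6V0E2 and ATP6V1G2 differed by -0.07 to 0.19, with a median of 0.03. A further 5 isoforms were not measured, ATP6V0D2, ATP6V1B1, ATP6V1C2, ATP6V1E2 and ATP6V1G3, most of them known from kidney, testis, brain or bone. Of these, ATP6V1E2, the testis form of the E subunit, had 2.24 and 3.84, both under the level that counted as measured. Of 10 assembly factors of the pump 0 passed 1.5-fold, and their median was -0.04. Beside 6.30% upward and 5.78% downward of all measured probe sets, a count of 0 in so short a list is uninformative.

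Factors that sort enzymes to the lysosome, such as the mannose 6-phosphate receptors M6PR and IGF2R and the enzyme that makes this tag, GNPTAB, had a median of -0.04 over 20 measured genes, and 0 passed 1.5-fold in either direction. Among 12 measured genes of the TFEB family and of mTORC1 docking at the lysosome, 0 passed 1.5-fold upward and 2, or 16.7%, downward, beside 6.30% and 5.78% of all measured probe sets. Of probe sets with both values measured, as in these 12 genes, 5.35% and 5.17% passed. FNIP2, a partner of folliculin, had 5.95 and 4.71, a difference of -1.24, and RRAGD, a Rag GTPase, had 7.19 and 6.60, a difference of -0.59. Of the transcription factors themselves, named here after their values were seen, TFE3 differed by 0.51, from 5.84 to 6.35. TFEB was not measured, with 4.19 and 3.97, nor were MITF and TFEC. Transcript levels do not show where in the cell these factors were.

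**Figure D4:**
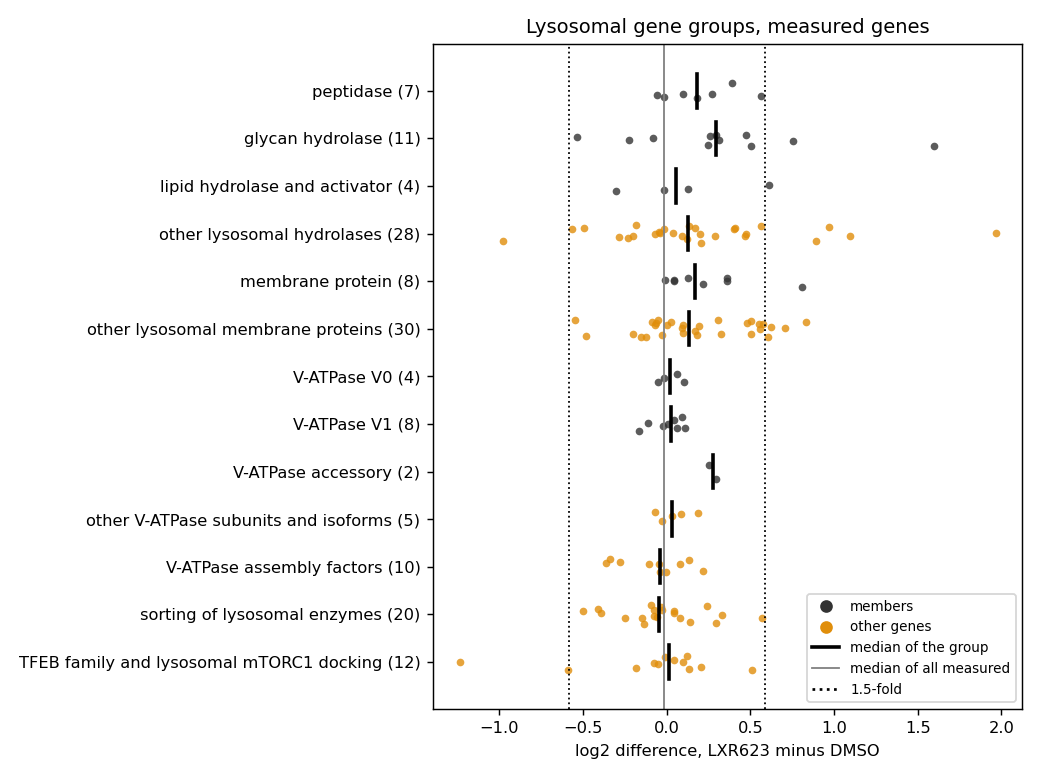
Difference between the LXR623 and the DMSO array on the log2 scale for measured genes of 13 lysosomal groups (members in dark grey, other genes in orange, number of genes in parentheses), with black bars at group medians, a grey line at the median of all measured probe sets and dotted lines at 1.5-fold. The 12 V0 and V1 genes lie between -0.17 and 0.11, while glycan hydrolases run from -0.53 to 1.60 and membrane proteins from -0.01 to 0.81.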

How the data were processed

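Total RNA of HCT116 cells was labeled with biotin and hybridized to 1 array per condition. The authors deposited log2 intensities summarized by RMA, which the submitters' processing notes name together with affy 1.36.1 and R 2.15.1. The array design and its genome build are not given in the sources used here. RMA brings the distributions of the arrays close together, so a shift common to all genes would largely not be seen. The deposited distributions were not identical. Their medians were 4.40 for DMSO and 4.43 for LXR623, and the sorted values differed by up to 0.21. Probe sets carry Entrez Gene numbers, and the platform annotation gave 1 symbol for 22458 of 23786, several for 0 and none for 1328, which are unnamed here. The labels name RPMI medium, whereas the study's methods name DMEM for these cells.

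Differences, medians and counts at 1.5-fold were computed with Python 3.11.15, numpy 2.4.6, pandas 2.3.3 and statsmodels 0.14.6, drawn with matplotlib 3.10.9, and tested on simulated data. The number of arrays limits the precision. Members and gene lists were chosen with earlier results of these data known. Of 128 other pathway genes in 6 lists 117 had a row. Values are given for members past 1.5-fold, for the 3 highest and the 2 lowest differences of each role group and for up to 4 genes past 1.5-fold of each other list. Alternatives were other filters, a lowess trend (fraction 0.3) removed, quantile normalization repeated, centring, means, other thresholds and groups without PSAP or the accessory subunits. Promoters came from RefSeq, GRCh38.p14.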

Additional observations from a re-analysis of the deposited data

How the results depend on the processing

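No paired analysis was possible because each condition has 1 array. With no replicate spread, a median counted as moved beyond 0.10 on the log2 scale, and none did: hydrolases kept 0.25 to 0.29 (mean without IDUA, added after seeing the data, 0.18), membrane proteins 0.17 to 0.24, V-ATPase subunits 0.02 to 0.07 and the gap 0.20 to 0.22. At 2-fold, 1 hydrolase and 0 membrane proteins were higher, where 1.38% of all measured probe sets were higher and 0.741% lower. At a lower threshold of 0.32 on the log2 scale, 7 hydrolases and 3 membrane proteins were higher and 1 hydrolase was lower, where 18.1% of all measured probe sets were higher and 19.2% lower. With the lowess trend removed CTSH passed 1.5-fold, at 0.60, and the other 219 of 220 values of single members stayed on their side of it. Many of these could not differ. The other filters were looser than one that all members had passed, so they left member values and class medians unchanged. Centring moved all members by the same small amount. Signal over background was not used here, and dim probe sets such as that of IDUA are the least certain.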

Other observations

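The genes were also read by substrate, a grouping chosen after the values were seen and therefore not tested. GLB1, HEXA, GM2A, NEU1 and PSAP, which act in turn or as activators on gangliosides, had differences between 0.29 and 0.76 with a median of 0.57, where 47.0% of all measured probe sets lay above 0. GM2A, the activator that presents the ganglioside to hexosaminidase, had 7.24 with DMSO and 7.81 with LXR623. GLA, ASAH1, SMPD1 and ARSA, enzymes that degrade globosides, ceramide, sphingomyelin and sulfatide, lay between -0.53 and 0.13, with 2 of the 4 above 0. PSAP, at 0.61, gives rise to the activators of several of these enzymes too, so it belongs to both groups.

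The enzymes of heparan sulfate breakdown lay on both sides of 0. IDUA, HGSNAT and ARSG were at least 1.5-fold higher and IDS and GUSB differed by 0.47 and 0.31, whereas SGSH, the sulfamidase, differed by -0.02 and NAGLU by -0.23. The 3 partners of the complex in which CTSA protects NEU1 and GLB1 differed by 0.10, 0.29 and 0.50. Why genes of 1 pathway were unequal was not tested.

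Of the proteins that release cholesterol from lysosomes, NPC1 and LIPA were read out in the same way, after their values were seen. NPC1, the membrane protein that exports cholesterol and is mutated in Niemann-Pick disease type C, had 7.91 with DMSO and 8.48 with LXR623, a difference of 0.58, or 1.49-fold. LIPA, the acid lipase that cleaves cholesteryl esters, had 7.54 and 8.01, a difference of 0.47. Both were thus below 1.5-fold, at percentiles 93.3 and 89.9 of all measured probe sets. As genes picked by hand, they do not stand for a wider set.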
